A study of Mus musculus with 2 samples.

Results

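Genes for conjugating enzymes and their close partners in drug metabolism were compared between the intestine of ERAP1 wild-type (WT) mice and of mice labelled ERAP1+/-. The members were the gene symbols of the glutathione transferase (Gst and Mgst), UDP-glucuronosyltransferase (Ugt), sulfotransferase (Sult) and arylamine N-acetyltransferase (Nat) families, together with Nqo1, Gclc and Gclm, which makes 74 of the 40879 symbols counted. Their share of all reads was 0.211% in WT and 0.230% in the library labelled ERAP1+/-. Of these genes, 38 had at least 10 reads over both libraries, 9 had fewer (at most 8) and 27 had none. By family, 26 members were glutathione transferases, 22 Ugt genes, 21 Sult genes and 2 Nat genes.

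Conjugating enzymes attach a polar group to drugs, bile pigments, steroids and plant compounds, so that the product dissolves in water and can be pumped out of the cell. Glutathione transferases add glutathione, the Ugt enzymes a sugar from its UDP-linked form, the Sult enzymes sulfate from the donor PAPS, and the Nat enzymes an acetyl group. Colonocytes carry members of all these families and meet their substrates from the lumen and from the blood. Acetylation by Nat enzymes also inactivates 5-aminosalicylic acid, the part of sulfasalazine that acts in the colon. Nqo1, a quinone reductase, and Gclc and Gclm, the subunits of the enzyme that limits glutathione synthesis, do not conjugate drugs themselves and are classic targets of the transcription factor NRF2.

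Each genotype was represented by 1 library, made from RNA of 3 mice mixed in equal amounts. WT mice carried intact Erap1. Mice labelled ERAP1+/- were described as heterozygous for a mutant allele derived from ERAP1 tm1a (EUCOMM)Wtsi by a cross to a strain that expresses Cre recombinase, which deletes a pair of exons flanked by loxP sites; the Cre strain and the sex of the pooled mice were not given in the sources used here. Both groups were on the C57BL/6 background, were described both as germ-free and as kept under specific pathogen-free conditions, and were 8 weeks old when the experiment began. No drug or DSS is named in the labels of either library. Reads came from the 3' ends of polyadenylated transcripts and were deposited as counts per gene symbol, 8114826 for WT and 8907515 for that labelled ERAP1+/-. With 1 library per genotype, no difference had a replicate check and no p-value could be given. Levels are counts per 1000000 (CPM) after TMM scaling, a method that adjusts the library sizes for composition, and differences are ERAP1+/- minus WT on the log2(CPM + 1) scale, which understates the difference of genes with few reads. The intervals in brackets are exact 95% intervals of the ratio of reads and cover counting error only, not variation between mice. The limit that a count of 0 allows is 3 reads, which is 0.386 CPM for WT and 0.322 CPM for ERAP1+/-.

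Erap1, the targeted gene, was counted 229 times in WT and 2 times in the library labelled ERAP1+/-, a ratio of 0.0073 (0.00088 to 0.0267). An intact allele would be expected to leave more reads than this, so the count goes against the heterozygous label, and every direction given here is that of the library labelled ERAP1+/- against WT. The tissue carried markers of the large intestine in both libraries, such as Car1 (13814 and 9366 reads) and Aqp8 (5360 and 5329), and genes of small intestine enterocytes in part: of 13, Sis and Apoa4 had no read, Slc5a1 had 1273 and 1201, Apob 131 and 171, and Fabp2, with 56 and 299, was called higher. Of the 10 hepatocyte genes checked, Fga, Fgb and Apoh had no read in either library, Alb had 11 and 17, Ttr 391 and 709 and Tat 373 and 256. The libraries also differed in other tissues and cell types. Genes of suprabasal epidermis were lower in the library labelled ERAP1+/- in 25 of 25 cases, with 32596 and 514 reads in sum, and so were 24 of 24 skeletal muscle genes (11832 and 315 reads), 14 of 14 genes of basal stratified epithelium (10061 and 5418), 18 of 18 hair follicle and sebaceous genes (4695 and 1013) and 14 of 14 smooth muscle genes (113722 and 68956). All 10 goblet cell genes were higher (68676 and 133667 reads), and 25 colon epithelium genes had a median difference of -0.32. Xist had 1635 and 6451 reads. The Y-linked genes checked were all lower: Ddx3y had 319 and 29 reads, Eif2s3y 111 and 1, Uty 110 and 11, and Kdm5d 72 and 5. The pools thus differed in their make-up by sex, and differences by sex cannot be told apart from those by genotype. The part of these differences in the values below was not tested, and in whole tissue a smaller number of cells of a type cannot be told apart from less RNA per cell.

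Sequences upstream of the members were examined first, because the antioxidant response element, which binds NRF2, and the core site of the aryl hydrocarbon receptor AHR are the best known elements of these genes. Of the 74 members, 62 matched a RefSeq promoter of build GRCm38.p6, which runs from 250 bases before to 50 bases after an annotated start. The letters TGACNNNGC, searched on both strands as the core of the antioxidant response element, were present in 5 of the 74 promoters of these members (6.76%), against 12.4% of 32851 promoters of all genes. The letters GCGTG, the AHR core, were present in 16 (21.6%), against 32.4% of all promoters. Among the promoters of members with at least 10 reads the shares were 11.4% and 31.8%, near those of all genes. Elements farther than 250 bases before a start were not searched, and some members, such as Gclc and Gsta4, had no promoter to search. The shares therefore do not show how many members have such elements. The 5 matches to TGACNNNGC lie before an annotated RefSeq start of Gclm, Gsta3, Gstm5, Gstm7 and Mgst1. For Gstm7 (107926334 to 107931817) and Mgst1 (138140316 to 138156755) the stretch shown lies inside the gene as GENCODE M21 places it. Gstm7 and Mgst1 each have another promoter in the set, which held no match. Each match is given here within 60 bases in the direction of the gene, in capitals. The match lies on the strand opposite to the gene in Gclm and Mgst1, and it begins 134 bases before the start in Gclm, 121 in Gsta3, 42 in Gstm5, 129 in Gstm7 and 56 in Mgst1.
Gclm (chr3:122245398-122245457, plus strand): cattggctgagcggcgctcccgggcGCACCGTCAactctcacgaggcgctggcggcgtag
Gsta3 (chr1:21240439-21240498, plus strand): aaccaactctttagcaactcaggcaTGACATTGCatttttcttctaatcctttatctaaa
Gstm5 (chr3:107895787-107895846, plus strand): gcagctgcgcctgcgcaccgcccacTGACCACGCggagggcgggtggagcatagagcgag
Gstm7 (chr3:107931709-107931768, minus strand): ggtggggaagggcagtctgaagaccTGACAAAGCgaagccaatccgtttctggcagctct
Mgst1 (chr6:138140446-138140505, plus strand): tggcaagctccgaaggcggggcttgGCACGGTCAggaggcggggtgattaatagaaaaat
The differences of these 5 genes ran from -0.03 for Gsta3 to 0.47 for Gstm7.

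A gene was called changed where its levels differed more than 2-fold on the log2(CPM + 1) scale and reached 4 on that scale, or 15 CPM, in 1 or both libraries. Of the 23 members that reached this level, 3 were called (13.0%), against 5.34% of the 8013 genes of the whole table. The glutathione transferases Gstm3 and Gstz1 were higher in the library labelled ERAP1+/-, where 1.39% of all genes were called higher, and Gsta4 was lower, where 3.96% of all genes were called lower. With scaling by the total count alone, Gsta4 came within 2-fold (-0.93) and the split was 2 higher and 0 lower. With no filter on low values, 9 of the 74 members differed more than 2-fold, against 3.51% of all 40879 symbols. The further 6 were below the level of 4: Gstm6 and Ugt2b35 were higher, and Gsta1, Gsta5, Sult1e1 and Ugt8a lower. No member differed 4-fold on this scale.

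Smaller differences were more frequent. Among the 38 members with at least 10 reads, the counting interval of the ratio lay above 1 for 16 (42.1%) and below 1 for 7 (18.4%). Over all 16142 genes with at least 10 reads the shares were 20.6% and 23.8%. Such shares depend on read number and were not matched for it: 23 of the 38 members reached the level of 4, against 8013 of the 16142 genes. In 27 of the 38 (71.1%) the value was above 0, against 50.3% of all genes; scaled by the total count these shares were 81.6% and 60.4%, and on colon epithelium genes 84.2% and 73.0%. The median difference was 0.18, against 0.00 over all genes. The summed reads of the 74 members were 17106 and 20443, a ratio of 0.998 (0.978 to 1.02), with the frequently read Sult1b1 and Gsto1 lower. The direction differed between members: 16 kept an interval above 1 and 4 an interval below 1 under all 5 scalings of the libraries. These were TMM, DESeq2 size factors, the total count, the median ratio of colon epithelium genes, and TMM without mitochondrial, ribosomal, skin and muscle genes. Each scaling multiplies every ratio by 1 common factor, so the 5 results are not separate checks. The smallest factor, that of TMM without those genes, set the count above 1: 16 members and 20.5% of all genes. The largest, that of colon epithelium genes, set the count below 1: 4 members and 10.9% of all genes. Scaled on colon epithelium genes alone, 25 of the 38 members had an interval above 1 and 4 below, against 44.3% and 10.9% of all genes. The 16 include Ugt1a5 (1 and 10 reads), and the 4 include Ugt8a (12 and 1).

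**Figure D1:**
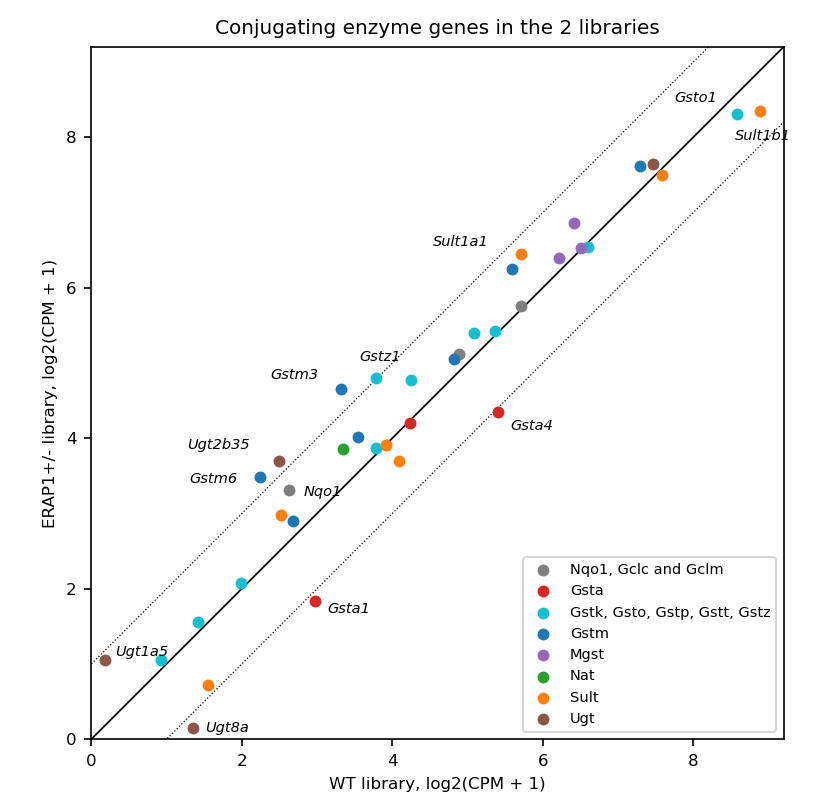
Level of the 38 members with at least 10 reads in the WT library (horizontal) and the library labelled ERAP1+/- (vertical), both as log2(CPM + 1), coloured by family, with the line of equality and dotted lines at 2-fold. Most points lie close to the line of equality; Gstm3 and Gstz1 lie past the upper dotted line and Gsta4 past the lower one, and the other points past 2-fold are below the level of 4.

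The mu class of glutathione transferases, which conjugates epoxides and other electrophiles, had 1 called gene of 5 that reached the level, against 5.34% of all genes. Of its 7 counting intervals, 5 lay above 1, against 20.6% of all genes with at least 10 reads, a share not matched for read number. The scaled read number of all 7 Gstm genes was greater in the library labelled ERAP1+/-, with differences from 0.22 to 1.33 (median 0.47), and the sign was the same under each of the 5 scalings. Together they had 2012 and 3327 reads, a ratio of 1.38 (1.31 to 1.46). Gstm3 was counted 70 times in WT and 225 times in the library labelled ERAP1+/- (9.01 and 24.2 CPM), a ratio of 2.68 (2.04 to 3.56). It was the only member whose whole counting interval lay past 2-fold at the level of 4. Gstm6 had 29 and 95 reads (3.73 and 10.2 CPM) and a ratio of 2.74 (1.79 to 4.30), but stayed below the level at which genes were called. Gstm2 had 366 and 697 reads (47.1 and 74.9 CPM), a ratio of 1.59 (1.40 to 1.81). Gstm1, a mu class enzyme of liver and many other tissues, had 1210 and 1811 reads, a ratio of 1.25 (1.16 to 1.35). The intervals of Gstm7 (83 and 141 reads; 1.07 to 1.88) lay above 1, and those of Gstm5 (212 and 298; 0.981 to 1.41) and Gstm4 (42 and 60; 0.791 to 1.81) included 1.

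The 7 genes lie side by side on chromosome 3 of GRCm38, from the start of Gstm5 at 107895821 to the end of Gstm4 at 108044894 (GENCODE M21). In order of position, the differences were 0.22 for Gstm5, 0.47 for Gstm7, 1.24 for Gstm6, 1.33 for Gstm3, 0.66 for Gstm2, 0.32 for Gstm1 and 0.22 for Gstm4. The larger values thus belonged to neighbours in the middle of the cluster, Gstm6 (107938847 to 107943749), Gstm3 (107963696 to 107969283) and Gstm2 (107981702 to 107986453), all on the minus strand. These 3 had 465 and 1017 reads together, a ratio of 1.83 (1.64 to 2.04), and the other 4 had 1547 and 2310, a ratio of 1.25 (1.17 to 1.33). The grouping was made after the values were seen. Paralogs can share reads, and in the last 500 bases of the annotated transcripts 6.58% of the 75-base stretches of Gstm6, 4.62% of Gstm2, 15.9% of Gstm1 and none of Gstm3, Gstm4, Gstm5 and Gstm7 were identical to a transcript of another gene. For Gstm6 and for Gstm1 the other genes included Gstm3, so reads from their 3' ends can also match Gstm3.

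**Figure D2:**
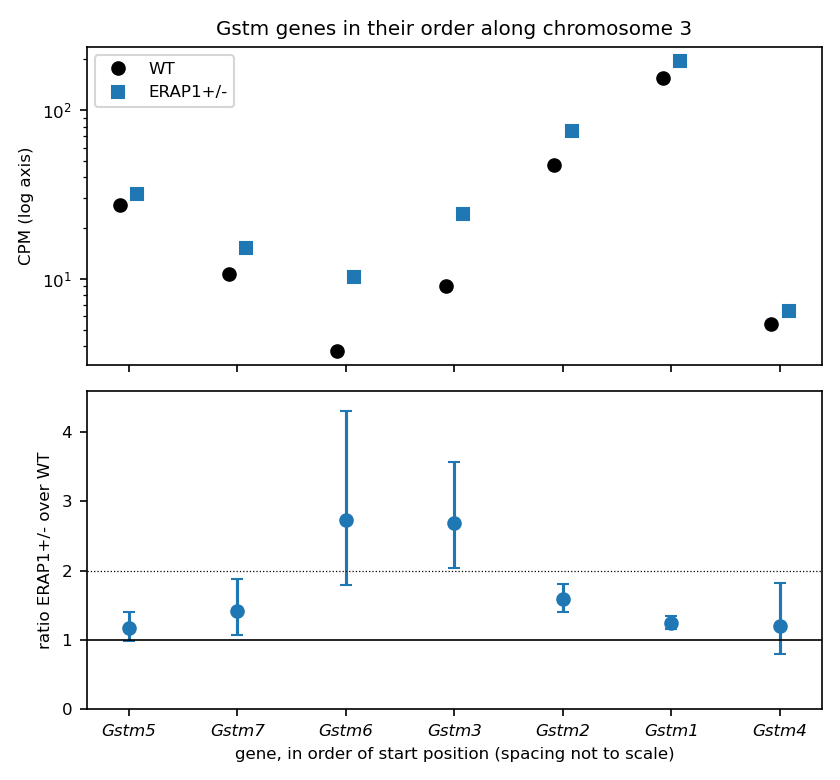
The 7 Gstm genes in order of their start on the chromosome: above, CPM in the libraries labelled WT (circles) and ERAP1+/- (squares) on a log axis; below, the ratio with its 95% counting interval, a line at 1 and a dotted line at 2. The ratio is 2.74 and 2.68 for the neighbours Gstm6 and Gstm3 and between 1.17 and 1.59 for the other 5 genes.

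The promoters of Gstm3 and Gstm6 are shown because these neighbours had the larger ratios. Bases from the annotated start onward are in capitals. Neither TGACNNNGC nor GCGTG was found on either strand of these windows, nor in that of Gstm2, which says only that these letters are not in them. RefSeq gives 3 starts for Gstm6, and that of the transcript nearest to the gene's annotated 5' end is printed.
Gstm3 (chr3:107969125-107969424, minus strand): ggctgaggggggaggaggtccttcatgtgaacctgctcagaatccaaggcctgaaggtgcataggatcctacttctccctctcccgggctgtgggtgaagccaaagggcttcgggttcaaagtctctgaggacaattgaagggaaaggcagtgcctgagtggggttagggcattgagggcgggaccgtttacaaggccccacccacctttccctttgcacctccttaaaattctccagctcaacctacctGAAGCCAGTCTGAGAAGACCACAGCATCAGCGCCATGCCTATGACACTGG
Gstm6 (chr3:107943685-107943984, minus strand): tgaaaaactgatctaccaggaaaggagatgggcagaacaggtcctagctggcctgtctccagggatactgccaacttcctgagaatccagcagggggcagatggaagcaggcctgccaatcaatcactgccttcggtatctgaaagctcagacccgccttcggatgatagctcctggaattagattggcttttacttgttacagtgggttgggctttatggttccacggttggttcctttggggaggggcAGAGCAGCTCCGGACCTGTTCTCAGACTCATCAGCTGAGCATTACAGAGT

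The alpha class showed the reverse direction in part of its members. Gsta4, which conjugates 4-hydroxynonenal and other products of lipid peroxidation, was counted 322 times in WT and 181 times in the library labelled ERAP1+/- (41.4 and 19.5 CPM). It was 2.13-fold lower (1.77 to 2.57), with a difference of -1.05. Gsta1 had 53 and 24 reads and was 2.64-fold lower (1.60 to 4.48), and the intervals of both genes stayed below 1 under all 5 scalings. Gsta5 went from 8 reads to 0, at least 3.19-fold lower against the limit of 3 reads for the library and 2.04-fold by the exact counting limit, which also covers the WT reads, and Gsta2 had 6 and 2 reads. Gsta4 (chromosome 9, 78182774 to 78209349) and Gsta1 (78230656 to 78242684) lie close together, whereas Gsta3, which also acts as a steroid isomerase, lies on chromosome 1 (21240589 to 21265661). Gsta3 had 138 and 162 reads, a ratio of 0.981 (0.777 to 1.24), and its sign turned when the libraries were scaled by their total count. Of the 75-base stretches at the 3' end of Gsta1, 83.6% were shared with Gsta2 or the predicted gene Gm3776. For Gsta2 the share was 41.3%, and for Gsta4 and Gsta3 none was shared. The counts of Gsta1 and Gsta2 are therefore uncertain. Gsta5 had no placed transcript, so the sharing of its reads could not be examined. Gsta1 and Gsta2 together had 59 and 26 reads, 2.72-fold lower (1.69 to 4.49). Gclc, which lies on the same chromosome at 77754535 to 77794485, had 400 and 494 reads and a difference of 0.04.

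Among the other soluble glutathione transferases, Gstz1 stood apart. Gstz1, which is the maleylacetoacetate isomerase of tyrosine breakdown, lies on chromosome 12 from 87147165 to 87164723. It had 99 and 250 reads (12.7 and 26.9 CPM), a ratio of 2.11 (1.66 to 2.69) and a difference of 1.02, just past the threshold. Gstk1, an enzyme of mitochondria and peroxisomes, had 140 and 245 reads, a ratio of 1.46 (1.18 to 1.81). Gsto1, which reduces dehydroascorbate, had 2958 and 2941 reads and was 1.20-fold lower (1.14 to 1.27); scaled on colon epithelium genes, its sign turned (0.05). In the theta class, Gstt2 had 255 and 382 reads (ratio 1.25, 1.07 to 1.47), while Gstt1 (311 and 389; 0.898 to 1.22) and Gstt3 (748 and 861; 0.871 to 1.06) had intervals that included 1. Gstt4 had 3 and 0 reads, which gives no fold. Gstp1, Gstp2 and Gstp3 had 135 and 175 reads together, a ratio of 1.08 (0.860 to 1.37); 72.8% of the 3' stretches of Gstp1 and 50.9% of those of Gstp2 occur in another gene. Gsto2 had 7 and 10 reads.

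The membrane-bound glutathione transferases, which also act in leukotriene synthesis and peroxide reduction, had small positive differences. Mgst2, which can make leukotriene C4, had 656 and 1069 reads (84.4 and 115 CPM), a ratio of 1.36 (1.23 to 1.50). Mgst1 had 567 and 777 reads, a ratio of 1.14 (1.03 to 1.28), and Mgst3 had 700 and 851, a ratio of 1.02 (0.918 to 1.12). The first 2 intervals were above 1 under all 5 scalings. Nqo1, Gclm and Gclc are the members that do not conjugate drugs themselves. Of these, Nqo1 had 40 and 83 reads (5.15 and 8.92 CPM), a ratio of 1.73 (1.17 to 2.59), and remained below the level of 4. Gclm, the modifier subunit of glutamate-cysteine ligase, had 221 and 315 reads, a ratio of 1.19 (0.999 to 1.42). The catalytic subunit Gclc had 51.5 and 53.1 CPM, a ratio of 1.03 (0.902 to 1.18).

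**Figure D3:**
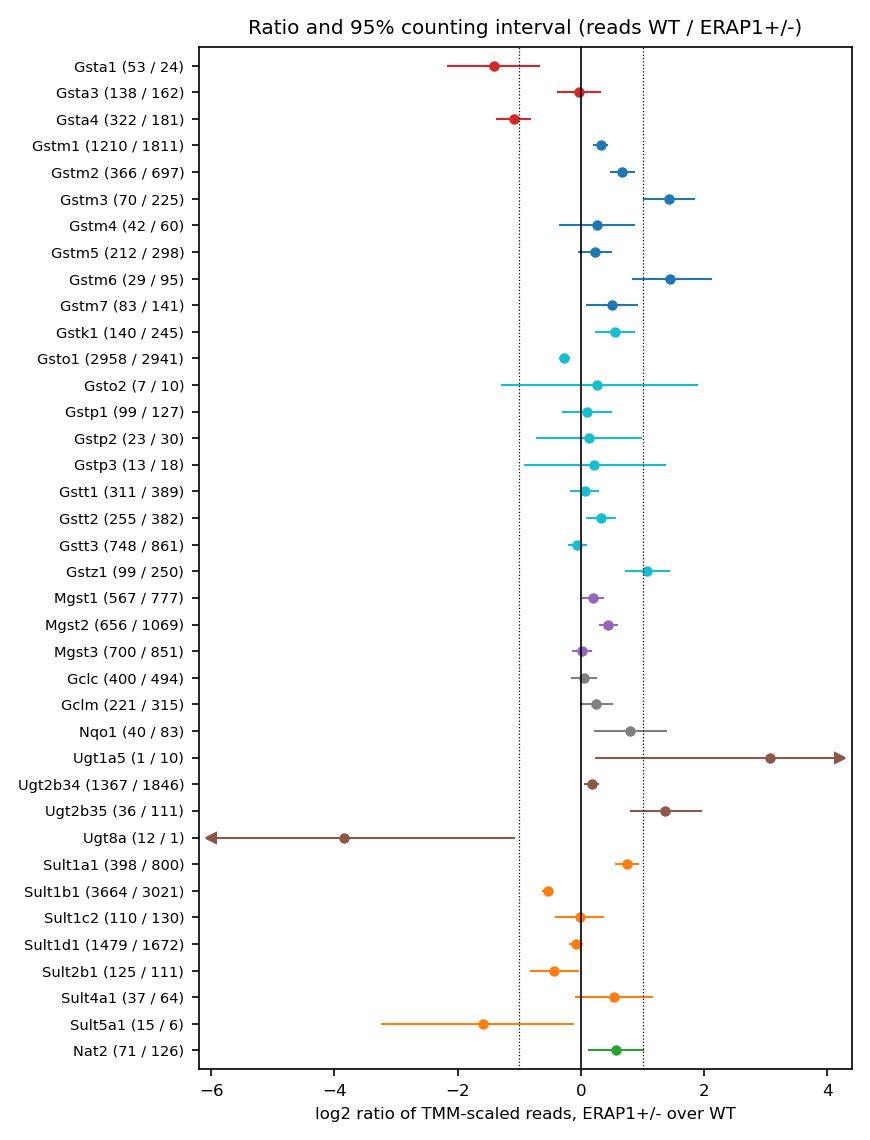
Ratio of TMM-scaled reads (ERAP1+/- over WT, log2 axis) for the 38 members with at least 10 reads, with the exact 95% counting interval, coloured by family; reads in the libraries labelled WT and ERAP1+/- follow each name, dotted lines mark 2-fold, and arrows mark intervals that run past the axis. The Gstm genes lie right of 0, Gsta1 and Gsta4 left of it, and the Sult genes on both sides.

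Reads of the Ugt genes came almost wholly from the Ugt2b cluster on chromosome 5, whose enzymes glucuronidate steroids, bile acids and phenols. Ugt2b34 had 1367 and 1846 reads (176 and 198 CPM), a ratio of 1.13 (1.05 to 1.21). Ugt2b35 had 36 and 111 reads (4.63 and 11.9 CPM), a ratio of 2.58 (1.75 to 3.86) and a difference of 1.20, below the level of 4. Both intervals were above 1 under all 5 scalings, and neither gene shared a 75-base stretch at its 3' end with another gene. Ugt2b1 had 1 and 4 reads, Ugt2b36 1 and 0, Ugt2b5 0 and 1, and Ugt2b37, Ugt2b38, Ugt2a1, Ugt2a2 and Ugt2a3 none. Ugt8a, which makes galactosylceramide in myelin-forming cells and uses UDP-galactose, had 12 and 1 reads and was 14.4-fold lower, with an interval from 2.13 to 614. Ugt3a1 and Ugt3a2 had no read.

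The 9 Ugt1a genes, which include the bilirubin-conjugating enzyme Ugt1a1, had 3 and 12 reads in sum, a ratio of 3.34 (0.902 to 18.5). Ugt1a5 accounted for 1 and 10 of these, with an interval from 1.19 to 363. These genes have separate first exons and splice to the same downstream exons on the plus strand of chromosome 1, where the last exon of the full-length transcripts begins at 88218127 and that of Ugt1a1 ends at 88218997. Within the last 500 bases, 7 of the 9 genes had no 75-base stretch of their own. The reads used here come from this end, and how reads that match several genes were handled is not given in the sources used here, so that these counts do not measure the locus.

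The sulfotransferases differed in both directions. Sult1b1, an enzyme for thyroid hormones and small phenols, had 3664 and 3021 reads (472 and 325 CPM) and was 1.45-fold lower (1.38 to 1.52), with an interval below 1 under all 5 scalings. Sult1a1, the main phenol sulfotransferase, had 398 and 800 reads (51.2 and 86.0 CPM), a ratio of 1.68 (1.49 to 1.90), above 1 under all 5. Scaled on colon epithelium genes, Sult1a1 passed 2-fold (1.05). Sult1d1, which sulfates catecholamines and lies close to Sult1b1 on chromosome 5, had 1479 and 1672 reads and a ratio of 0.944 (0.880 to 1.01). Sult1c2 had 110 and 130 reads, a ratio of 0.987 (0.760 to 1.28). The family median over 7 genes was -0.08, and it was above 0 with scaling by the total count (0.042) or on colon epithelium genes (0.23).

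Reads of the less frequent sulfotransferases followed no single direction. Sult2b1, the cholesterol sulfotransferase of epidermis and other tissues, had 125 and 111 reads and was 1.35-fold lower (1.04 to 1.76), in libraries whose suprabasal epidermis genes had 32596 and 514 reads. Scaled by the total count or on colon epithelium genes, its interval included 1. Sult1e1, the oestrogen sulfotransferase, was counted 8 and 0 times, at least 3.19-fold lower against the limit of 3 reads for the library and 2.04-fold by the exact counting limit. Sult5a1 had 15 and 6 reads, 2.99-fold lower (1.10 to 9.42), and Sult4a1, a neuronal family member, had 37 and 64, a ratio of 1.44 (0.949 to 2.23). The other 13 Sult genes, among them all 8 Sult2a genes, which sulfate bile acids and steroids in liver, had no read.

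Nat2 and Nat1 encode the arylamine N-acetyltransferases and lie close together on chromosome 8. Nat2 had 71 and 126 reads (9.14 and 13.5 CPM), a ratio of 1.48 (1.10 to 2.01), and its interval was above 1 under all 5 scalings. It stayed below the level of 4 and was not called. Nat1 had no read in either library.

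The scaling of the libraries shifted these values together. TMM and DESeq2 size factors gave nearly the same values. Scaling by the total count moved the median of all genes with at least 10 reads from 0.00 to 0.11, and scaling on 25 colon epithelium genes moved it to 0.28. The median of the 38 members was 0.31 and 0.49 under these scalings, above that of all genes in each case. A scaling moves both medians nearly alike, so these are not separate comparisons. In 33 of the 38 members the sign was the same under all 5 scalings, and the exceptions were Gsta3, Gsto1, Gstt3, Sult1c2 and Sult1d1. Gstm3 (1.33 to 1.63) and Gstz1 (1.02 to 1.32) were called under every scaling. Gsta4 passed 2-fold under 3 of the 5 and was -0.75 when scaled on colon epithelium genes.

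**Figure D4:**
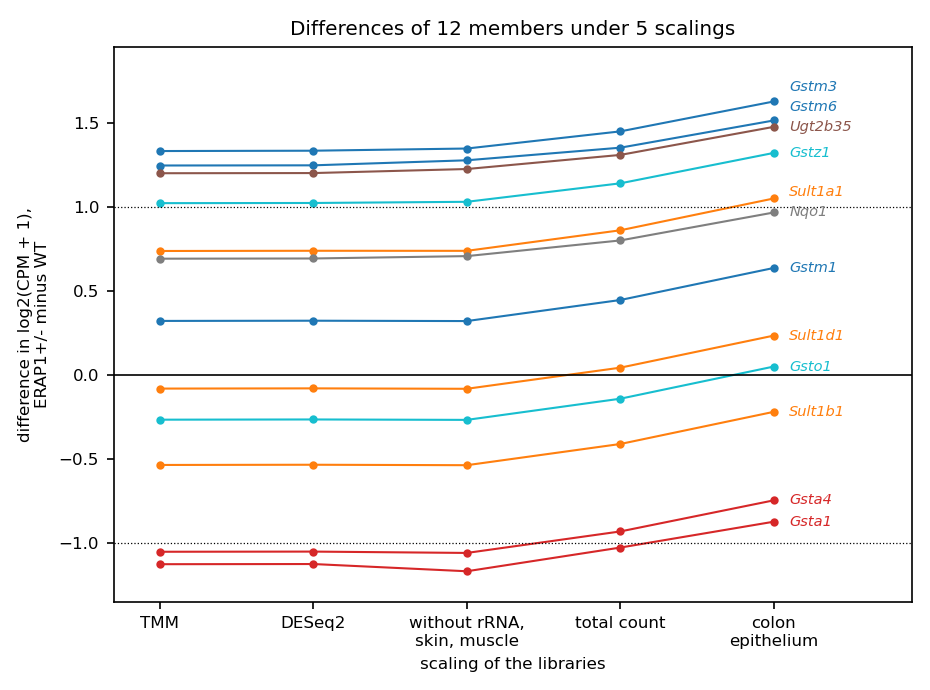
Difference in log2(CPM + 1), ERAP1+/- minus WT, of 12 members under 5 scalings of the libraries, coloured by family, with dotted lines at 2-fold. Gstm3, Gstm6, Ugt2b35 and Gstz1 lie above 1 under every scaling, Gsta4 crosses -1, and Gsto1 and Sult1d1 cross 0.

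Other genes of the pathway were taken from fixed lists, some of which share genes (Gsr, Slc7a11 and Abcc1 stand in 2 lists). The sensors of electrophiles and foreign compounds were close to level. Nfe2l2, which encodes NRF2, had 1503 and 1927 reads (ratio 1.07, 1.00 to 1.15), Keap1, its repressor, 696 and 886, Mafg, a partner of NRF2 on DNA, 740 and 668 (difference -0.40), and none of the 11 sensor genes was called, 7 of which reached the level (median -0.15). Of the 16 NRF2 targets that are not conjugating enzymes, 14 reached the level, none was called higher and 2 were called lower, against 3.96% of all genes. These were Me1, malic enzyme (182 and 102 reads; 2.14-fold lower, 1.67 to 2.75), and Osgin1 (144 and 72; 2.39-fold lower, 1.79 to 3.22), and the list median was -0.15. The abundant targets Txn1 (9686 and 12649 reads; difference 0.13), Fth1 (9918 and 9368; -0.34) and Prdx1 (3125 and 4492; 0.26) were not called. Scaled on colon epithelium genes, the medians of both lists were above 0 (0.16 and 0.16).

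The genes that supply the donors of the reactions showed few differences, where 5.34% of all genes that reached the level were called. For glutathione, 14 genes had at least 10 reads, 7 reached the level and 1 was called: Dpep1, a dipeptidase of the brush border that breaks down its conjugates, had 192 and 518 reads, a ratio of 2.25 (1.91 to 2.67). Lap3, a leucine aminopeptidase, had 608 and 673 reads, Glrx, glutaredoxin, 550 and 484, and Gss, glutathione synthetase, 342 and 407. None of the 8 genes of UDP-sugar supply, of which 7 reached the level, was called (median 0.00), and Ugdh, which makes UDP-glucuronic acid, had 808 and 1098 reads, a difference of 0.18. Ugp2, which makes UDP-glucose, had 571 and 695 reads, and the nucleotide sugar carrier Slc35a3 had 899 and 1314, a difference of 0.29. None of the 10 genes of PAPS supply and desulfation, of which 6 reached it, was called (median -0.02), and the PAPS synthases Papss1 and Papss2 had 1456 and 1390 and 703 and 804 reads, and the sulfate carrier Slc26a2 2641 and 2740. Of 9 other conjugating enzymes, 5 reached it and only the methyltransferase Inmt was called, with 198 and 103 reads (2.30-fold lower, 1.81 to 2.95), while Tpmt, the thiopurine methyltransferase, had 220 and 233 reads and Acsm3, an acyl-CoA synthetase, had 208 and 341.

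Hydrolases and reductases had no called gene among the 15 of 19 that reached the level (median -0.05), with Cbr1 (3471 and 4003 reads), Por (1432 and 1065) and Akr1c13 (1024 and 1061) the ones with the most reads. Below the level of 4, 5 genes of these lists with at least 10 reads differed more than 2-fold: Aldh3a1, an aldehyde dehydrogenase, had 84 and 19 reads (5.29-fold lower, 3.19 to 9.22), the carboxylesterase Ces1f 25 and 113 (ratio 3.78, 2.43 to 6.08), the heme oxygenase Hmox1 22 and 5, and Ggct and Chac1, which break down glutathione and its dipeptides, 112 and 54 and 35 and 6. Of 15 transporters, 10 reached the level and 2 of these were called lower, against 3.96% of all genes: the peptide carrier Slc15a1 (744 and 354 reads; 2.52-fold lower, 2.21 to 2.86) and the prostaglandin carrier Slco2a1 (491 and 272; 2.16-fold lower, 1.86 to 2.52). The pump Abcb1a, P-glycoprotein, had 5607 and 5899 reads, a difference of -0.19. Abcg2, a pump that carries sulfasalazine, had 588 and 647 reads, a ratio of 0.919 (0.821 to 1.03). Of the 25 colon epithelium genes in the same libraries, 19 had lower and 6 had higher values, and Krt20 (5156 and 2674 reads) and Car4 (15163 and 8391) were called lower. Of the goblet genes, Muc2 (12020 and 32939) and Atoh1 (97 and 310) were called higher.

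**Figure D5:**
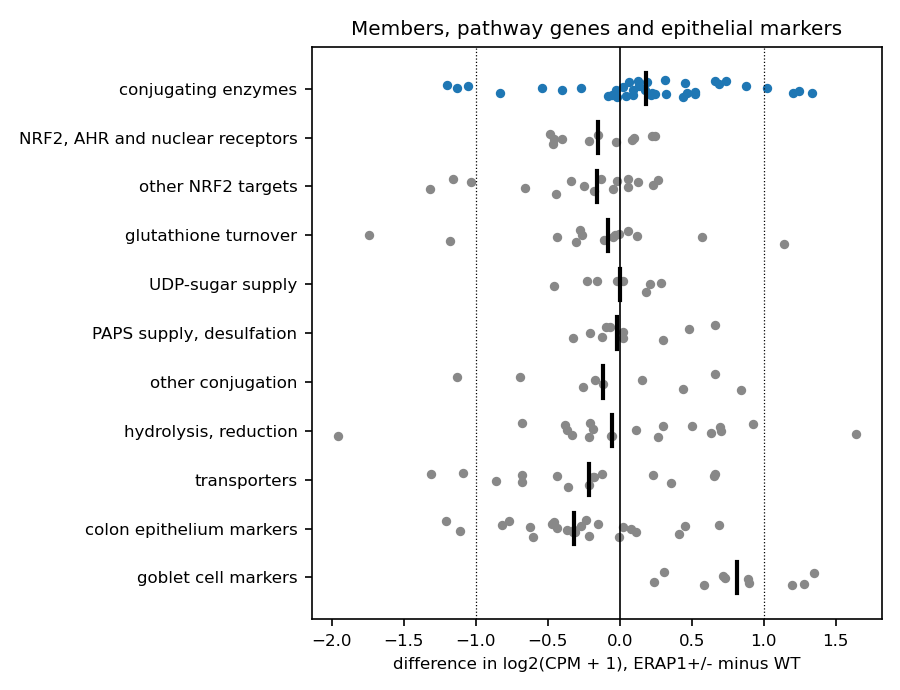
Difference in log2(CPM + 1), ERAP1+/- minus WT, of single genes with at least 10 reads (points) and the median of each list (bars), for the 38 conjugating enzyme genes, 8 pathway lists and 2 epithelial marker lists. The median is 0.18 for the conjugating enzymes, between -0.21 and 0.00 for the pathway lists, -0.32 for colon epithelium and 0.81 for goblet cells.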

How the data were processed

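For each genotype, equal amounts of RNA from 3 mice were mixed, and a QuantSeq library of transcript 3' ends was read at 75 bases. The authors deposited counts, whole reads per gene symbol without normalization; both files list the same 40879 symbols. The methods name STAR with HTSeq-count in one place and Bowtie2 with RSEM in another, and the submitters' notes name Bowtie2, RSEM and GRCm38; versions are not given in the sources used here. Which pair made the counts bears on paralogs, since only some tools divide reads that match several genes.

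Symbols were matched to the family patterns. TMM factors (0.958 for WT, 1.04 for ERAP1+/-) came from edgeR 4.0.16 in R 4.3.3 and DESeq2 1.42.0 gave alternative size factors; exact conditional binomial 95% intervals used scipy 1.17.1. A pseudocount of 1 CPM was added before log2. Family medians used members with at least 10 reads. The calling rule and intervals were tested on simulated data with known changes. These data held counting error only, so variation between mice was not covered. Mitochondrial and ribosomal RNA features held 18.0% and 16.7% of the reads. Members, lists and tests were chosen with earlier results of these data known. Named were all called members, the 5 members of each family with the most reads, Nqo1, Gclc, Gclm, Nat1 and Nat2, the called genes and the 3 with the most reads of a pathway list, and up to 5 markers of a cell type; other names were added after the values were seen. A listed gene that this rule would name is not reported here. Alternatives were other scalings, thinning, a pseudocount of 0.1 and other filters. Positions are from GENCODE M21 (GRCm38), which placed 73 of the 74 symbols, and its transcripts gave the shared 3' stretches.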

Additional observations from a re-analysis of the deposited data

How the results depend on the processing

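No paired analysis was possible because WT and ERAP1+/- are represented by 1 library apiece, and for the same reason no replicate could be left out. The number of members called, 3, was 9 with no filter on low values (4 higher, 5 lower), 7 with at least 10 reads in a library (4 and 3), 0 where the level had to reach 6 on the log2 scale, 0 at 4-fold and 1 (Gstm3) where the whole counting interval had to pass 2-fold. It was 2 or 3 under the other scalings, with thinning and with a pseudocount of 0.1, but not always the same genes: scaling by the total count lost Gsta4, and colon epithelium scaling replaced it with Sult1a1.

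The median over members was 0.18, 0.31 with scaling by the total count, 0.49 with colon epithelium scaling, 0.21 with a pseudocount of 0.1, 0.22 over the 31 members with at least 100 reads and 0.13 over the 47 with a read. By scaling on colon epithelium the family medians were 0.55 for Nqo1, Gclc and Gclm, -0.75 for Gsta, 0.35 for the other soluble Gst genes, 0.76 for Gstm, 0.51 for Mgst and 0.23 for Sult. By total count they were 0.20 for the other soluble Gst genes, 0.58 for Gstm, 0.32 for Mgst and 0.042 for Sult, whose sign turned under both. These shifts follow from the scaling itself, which moves all genes together. Of 228 recomputed values of single members, 205 stayed within the member's counting interval, 23 moved out of it and no called member changed sign. The comparison used the ratio of scaled reads, which holds no pseudocount, so the values with a pseudocount of 0.1 could not move. On the log2 scale Ugt8a went from -1.20 to -2.99 with that pseudocount. The 23 came from scaling by the total count or on colon epithelium genes, the scalings that differ most from TMM.

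Depth limits the members with few reads: the interval of Ugt1a5 runs from 1.19 to 363 and that of Ugt8a from 2.13 to 614.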
